A study of Mus musculus with 24 samples.

Results

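Cholesterol and fatty acid synthesis genes were followed through 12 pairs of RNA pools from the mouse urogenital sinus (UGS), the embryonic endodermal tube and mesenchyme that forms the prostate in males. The set held 32 listed genes. Of these, 30 were found on the arrays by the gene name in the scanner files, out of 24717 genes tested, and each was represented by its brightest probe. The 30 genes comprised 17 enzymes of cholesterol synthesis, 7 of fatty acid synthesis, and 6 regulators and carriers. The other 2, Acaca and Acss2, were present under older names, and their values are given separately.

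Tissue came from C57/Bl6J embryos with the accessory ducts dissected away and the sex read from the gonads, and RNA of several embryos was pooled. At 16 days post coitum, pregnant females were given 50 mg/kg of dihydrotestosterone (DHT), the potent androgen derived from testosterone, or vehicle. The UGS of their female embryos was compared after 6 h (4 pairs of pools) and 12 h (3 pairs). In the last comparison, 5 pairs of pools from untreated male and female littermates were compared at 17.5 days post coitum, a stage that the labels count as the 48 h point. The partners of a pair were hybridised against each other on 2-colour arrays, once in each dye orientation, which made 24 arrays. Values are log2 ratios of DHT over vehicle or of male over female, each the mean of both dye orientations, and a negative value means less RNA after DHT or in males. No pool was shared between comparisons.

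Cholesterol is built from acetyl-CoA through mevalonate, isoprenoids and squalene, and fatty acids are built from acetyl-CoA through malonyl-CoA, after which chains are lengthened and desaturated. Most genes of both routes are targets of the SREBP transcription factors, which are held in the endoplasmic reticulum with SCAP and INSIG proteins while sterols are plentiful and are released by cleavage when sterols fall. SREBP-2 acts mainly on sterol genes and SREBP-1c on fatty acid genes. In prostate cancer cells androgen is known to raise genes of both routes.

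The tissue markers and signal were checked first. All 27 listed epithelial markers and all 15 mesenchymal markers measured were well above background on all 24 arrays. The 4 Y-linked genes were higher in all 5 male pools, but they were also lower in the DHT pools at 6 h (4 of 4 passed the test), with median log2 ratios of −1.13, −0.63 and −0.61 in replicates 2, 3 and 4 and −0.13 in replicate 1. The vehicle pools of replicates 2 to 4 at 6 h, labelled female, thus held Y-linked RNA, and values from replicate 1 alone stand beside the 6 h results that rest on them. The 2 dye-swapped arrays of a pair correlated across genes at −0.5 to −0.0495 at 6 h, at −0.197 to 0.163 at 12 h and at 0.39 to 0.762 in males against females. Each comparison was hybridised on a date of its own, so date and comparison cannot be told apart. Whether a ratio comes from fewer cells of a type or from less RNA per cell cannot be told apart in whole tissue. The lipid genes were bright, with 29 of the 30 above the median signal of all genes and 29 of the 30 probes well above background on all 24 arrays.

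The sterol and fatty acid genes changed little in any comparison. Mean log2 ratios of the 30 genes ran from −0.20 to 0.19 at 6 h, from −0.15 to 0.10 at 12 h and from −0.20 to 0.10 in males against females, with standard errors (SE) between 0.03 and 0.10. At 6 h 1 of the 30 passed the test, Insig2, which was higher after DHT, against a background of 1.72% of all genes in either direction and 0.51% higher. At 12 h none of the 30 passed, against 0.101% of all genes; limma gave 4 of the 30 an unadjusted p under 0.05, against 14.1% of all genes. In males against females 2 of the 30 passed, Srebf1 and Elovl6, both lower in males, against 7.63% of all genes in either direction and 3.87% lower. A gene passed when its limma p was under 0.05 after Benjamini-Hochberg adjustment across the 24717 genes.

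**Figure D1:**
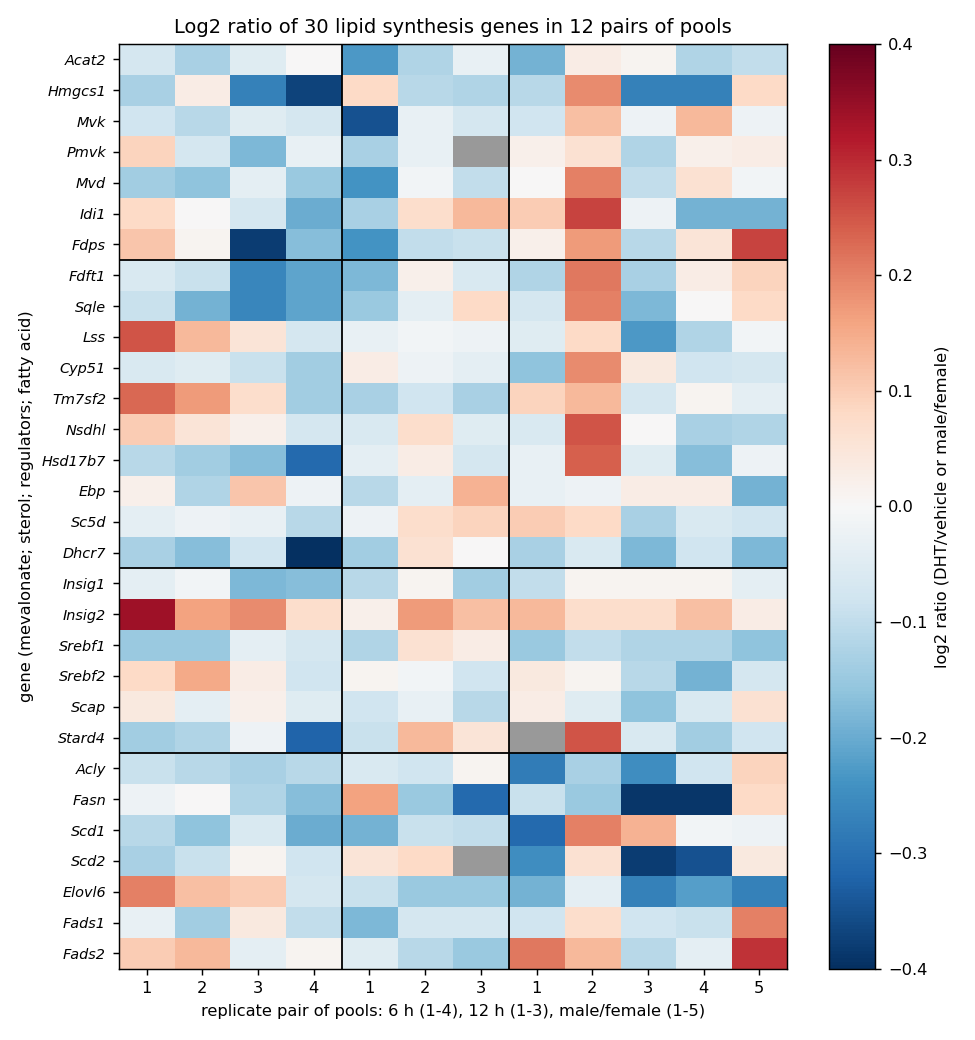
Log2 ratio of each of 30 genes (rows, grouped as mevalonate enzymes, squalene to cholesterol enzymes, regulators and carrier, and fatty acid enzymes) in each pair of pools (columns, with lines between the 6 h, 12 h and male-female comparisons); red is higher after DHT or in males, blue is lower, grey is missing, and the colour scale ends at −0.4 and 0.4. Blue prevails at 6 h in the upper rows, Insig2 is red in all 12 columns, and male-female replicate 2 stands out in red among the sterol genes.

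The 7 enzymes from acetyl-CoA to farnesyl diphosphate had negative mean ratios at 6 h in 7 of 7 cases and at 12 h in 6 of 7, and in 3 of 7 in males against females, while none passed the test in any comparison. Their median log2 ratios were −0.08, −0.12 and 0.00, against 0.01, 0.00 and 0.00 over all genes. Hmgcs1, which condenses acetyl-CoA with acetoacetyl-CoA, was the brightest of them. Its log2 ratios at 6 h were −0.13, 0.03, −0.27 and −0.37, with a mean of −0.18 ± 0.18 (SD, n = 4; limma adjusted p = 0.309). The spread between pairs was as large as the mean, and 1 of the 4 pairs was positive. The 2 other, dimmer probes for Hmgcs1 gave −0.01 and −0.02 at 6 h. Mvd, which makes isopentenyl diphosphate, gave −0.14, −0.16, −0.04 and −0.15 at 6 h, all below 0, with a mean of −0.12 ± 0.05 (SD, n = 4; limma adjusted p = 0.258). Mvk, the mevalonate kinase, gave −0.35, −0.03 and −0.07 at 12 h, a mean of −0.15 that rested on replicate 1 (limma adjusted p = 0.262). The remaining 4, Acat2, Pmvk, Idi1 and Fdps, had means between −0.14 and 0.08 over the 3 comparisons.

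The 10 enzymes from squalene synthesis to cholesterol had negative mean ratios in 7 of 10 cases at 6 h, 9 of 10 at 12 h and 7 of 10 in males against females, and none passed the test. The lowest adjusted p among them at 6 h belonged to Dhcr7, which carries out the final reduction to cholesterol. Its log2 ratios were −0.13, −0.17, −0.08 and −0.42, a mean of −0.20 ± 0.15 (SD, n = 4), 0.871-fold, with a limma adjusted p of 0.0709. All 4 pairs were below 0 and replicate 4 was the lowest. In males against females Dhcr7 gave −0.13, −0.06, −0.18, −0.08 and −0.18, again all below 0 (mean −0.12, limma adjusted p = 0.144), whereas at 12 h it gave −0.14, 0.06 and 0.00. Dhcr7 was thus negative in all 9 pairs of the outer comparisons and mixed in sign at 12 h, and the ratios at 6 h and in males against females were not shown to differ (difference 0.08, SE 0.07). Its second, dimmer probe gave means of −0.11 at 6 h, −0.01 at 12 h and −0.02 in males against females.

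Sqle, the squalene epoxidase, gave −0.09, −0.19, −0.26 and −0.21 at 6 h (mean −0.19 ± 0.07, SD, n = 4; limma adjusted p = 0.113). Hsd17b7, a keto-reductase of the sterol ring that also reduces oestrone, gave −0.11, −0.14, −0.17 and −0.31 (mean −0.18 ± 0.08, SD, n = 4; limma adjusted p = 0.108), and its second probe gave a mean of −0.24. Fdft1, the squalene synthase, gave −0.06, −0.09, −0.26 and −0.21 (limma adjusted p = 0.207), and its second, dimmer probe gave a mean of 0.00. Each of these 3 was below 0 in 4 of 4 pairs at 6 h, and each had a mean between −0.07 and 0.02 in the other comparisons. With the mean over all probes of a gene Hsd17b7 passed at 6 h (−0.21, limma adjusted p = 0.0342). With all 24 arrays fitted and the pair as a random block, Sqle (adjusted p = 0.0335), Hsd17b7 (0.0252) and Dhcr7 (0.0269) passed as well. In replicate 1 alone, the pair with the Y-linked ratio closest to 0, the log2 ratios at 6 h were −0.13 for Dhcr7, −0.11 for Hsd17b7 and −0.09 for Sqle.

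Not all sterol enzymes followed them. Lss, the cyclase that makes lanosterol, gave 0.25, 0.13, 0.05 and −0.07 at 6 h, and Tm7sf2, a sterol reductase, gave 0.23, 0.17, 0.07 and −0.14. Both were positive in replicates 1 to 3 and negative in replicate 4. Their means of 0.09 and 0.08 did not pass (limma adjusted p = 0.522 and 0.564). The 2 other probes for Lss gave −0.10 and −0.01 at 6 h, against the sign of the probe used, and −0.07 and −0.23 at 12 h. Nsdhl and Ebp, sterol enzymes encoded on the X chromosome, had mean log2 ratios of −0.01 ± 0.15 and −0.04 ± 0.09 in males against females (SD, n = 5). The Ebp mean there joined ratios of −0.08 to 0.26 without dye swap and of −0.31 to −0.13 with it. The 2 other probes for Nsdhl gave 0.00 and 0.11 in males against females, and −0.01 and −0.20 at 12 h. Cyp51 and Sc5d, the lanosterol demethylase and the lathosterol desaturase, stayed between −0.08 and 0.04 in all 3 comparisons with the probes used. The 2 other probes for Cyp51 gave −0.16 and −0.04 at 6 h and −0.09 and −0.05 at 12 h. In males against females they gave 0.06 and 0.03.

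Insig2 encodes an endoplasmic reticulum protein that retains SREBP in the membrane. Its log2 ratios at 6 h were 0.34, 0.16, 0.19 and 0.07, a mean of 0.19 ± 0.11 (SD, n = 4), 1.14-fold, with a 95% interval of 0.10 to 0.28 and a limma adjusted p of 0.0412. All 4 pairs were above 0, and replicate 1 was the highest. At 12 h it gave 0.02, 0.17 and 0.12 and in males against females 0.13, 0.07, 0.07, 0.12 and 0.03, neither of which passed (limma adjusted p = 0.352 and 0.246). Insig2 was the one gene among the 27 with a value in every pair that was positive in all 12, a pattern that 55 of 22926 other genes shared. The ratio depended on the dye orientation. On the 12 arrays without dye swap Insig2 was positive on 12, between 0.20 and 0.54, and on the 12 swapped arrays it was positive on 1, between −0.28 and 0.13. A second probe for Insig2 gave −0.02 at 6 h, and with the mean over its probes the ratio was 0.08 (limma adjusted p = 0.309). The call was also lost without replicate 1 (0.14, adjusted p = 0.276), without replicate 2 (0.20, adjusted p = 0.15) and without replicate 3 (0.19, adjusted p = 0.111), and replicate 1 alone gave 0.34 (adjusted p = 0.187).

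**Figure D2:**
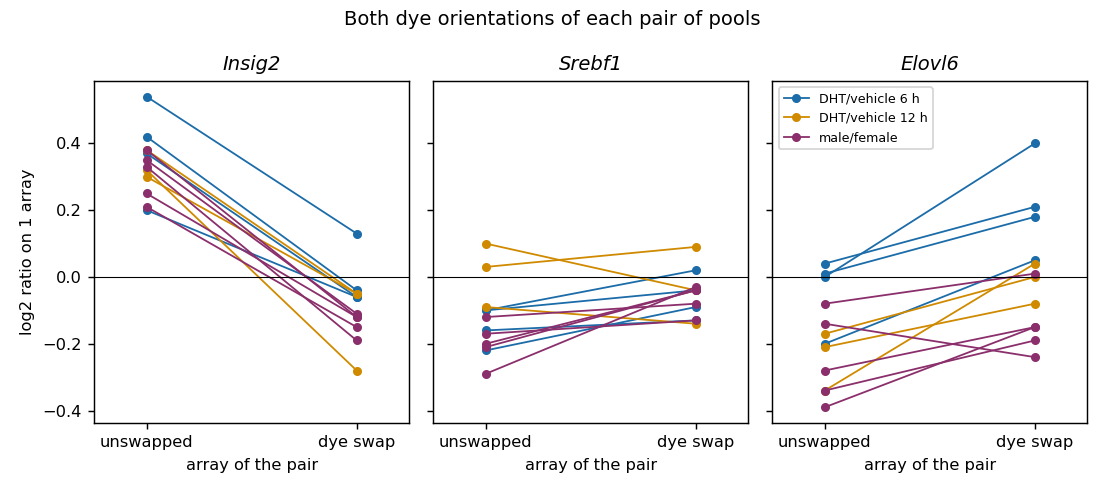
Log2 ratio on each single array for Insig2, Srebf1 and Elovl6; each line joins the array without dye swap (left) to the dye-swapped array (right) of 1 pair of pools, after turning all ratios to DHT over vehicle or male over female, and colours mark the comparisons. Insig2 lies between 0.20 and 0.54 on the left and between −0.28 and 0.13 on the right in all comparisons, whereas the 5 male-female pairs of Srebf1 are below 0 on both sides.

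Srebf1, which encodes both SREBP-1 isoforms, was lower in males. Its log2 ratios were −0.15, −0.10, −0.12, −0.12 and −0.16, a mean of −0.13 ± 0.02 (SD, n = 5), 0.913-fold, with a 95% interval of −0.20 to −0.06 and a limma adjusted p of 0.0215. All 5 pairs were below 0 within a narrow range, and so were all 10 arrays, from −0.29 to −0.12 without dye swap and from −0.13 to −0.03 with it. At 6 h Srebf1 gave −0.15, −0.15, −0.04 and −0.07 (mean −0.10, limma adjusted p = 0.179) and at 12 h −0.12, 0.06 and 0.03. The call in males was lost on leaving out replicate 1 (adjusted p = 0.0599), 4 (0.0691) or 5 (0.0626), with log2 ratios of −0.13, −0.13 and −0.12.

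The other regulators did not pass. Srebf2, which encodes SREBP-2, had mean log2 ratios of 0.04, −0.03 and −0.07, and Scap, its escort protein, of 0.00, −0.08 and −0.04. A second probe for Srebf2 gave −0.15, 0.02 and 0.08, against the sign of the probe used in each comparison. A dimmer probe for it gave 0.05, −0.01 and −0.01. Insig1, the dimmest of the 30 genes, gave −0.04, −0.01, −0.18 and −0.17 at 6 h (limma adjusted p = 0.249). Stard4, a soluble sterol carrier, gave −0.14, −0.12, −0.02 and −0.32 at 6 h, all below 0 with replicate 4 lowest (mean −0.15, limma adjusted p = 0.304). The 2 other, dimmer probes for Stard4 gave −0.07 and 0.01 at 6 h.

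Elovl6, which lengthens palmitate to stearate, was the fatty acid gene that passed in males against females. Its log2 ratios were −0.19, −0.04, −0.27, −0.22 and −0.27, a mean of −0.20 ± 0.10 (SD, n = 5), 0.873-fold, with a 95% interval of −0.29 to −0.11 and a limma adjusted p of 0.0104. All 5 pairs were below 0 and replicate 2 was the closest to it. At 12 h after DHT Elovl6 was also negative in 3 of 3 pairs, at −0.09, −0.15 and −0.15 (mean −0.13, limma adjusted p = 0.308). At 6 h it gave 0.20, 0.12, 0.10 and −0.07 (mean 0.09, limma adjusted p = 0.45), so that 3 of 4 pairs were positive and only replicate 4 overlapped the male-female values. Elovl6 depended on the dye orientation as well. Without dye swap its ratios lay between −0.20 and 0.04 at 6 h, −0.34 and −0.17 at 12 h and −0.39 and −0.08 in males. On the swapped arrays they lay between 0.05 and 0.40, −0.08 and 0.04, and −0.24 and 0.01. The male-female ratio differed from the 6 h ratio by −0.28 (SE 0.06; limma adjusted p = 0.0161), and Elovl6 was the 1 gene of the 30 that differed, against 7.1% of all genes in either direction and 3.49% in the negative one. That difference did not pass without 6 h replicate 1 (−0.25, adjusted p = 0.0619) or 2 (−0.27, adjusted p = 0.0589), and with 6 h replicate 1 alone it was −0.39 (adjusted p = 0.116). Between 12 h and 6 h, and between males against females and 12 h, none of the 30 differed by the limma test, against 0.0931% and 1.62% of all genes, and an unadjusted p was under 0.05 for 3 of the 30 in each, against 14.5% and 15.6%.

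**Figure D3:**
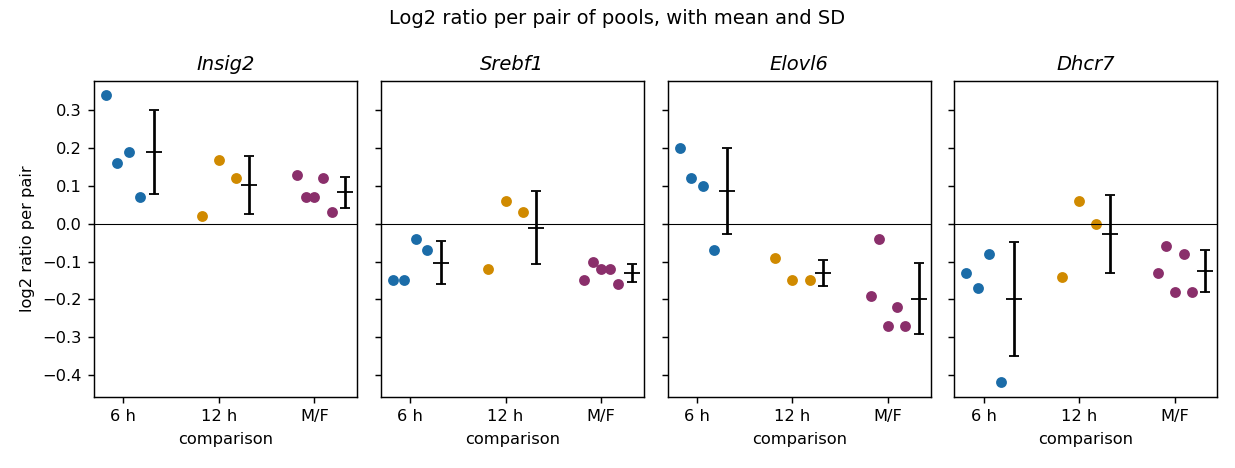
Log2 ratio per pair of pools (points) with the mean and SD (black bars) for Insig2, Srebf1, Elovl6 and Dhcr7 at 6 h (n = 4), at 12 h (n = 3) and in males against females (M/F, n = 5). The Elovl6 points lie mostly above 0 at 6 h and all below 0 at 12 h and in males, and the Srebf1 points of males lie between −0.16 and −0.10.

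Several other fatty acid genes varied widely between the male-female pairs. Fasn, the fatty acid synthase, gave −0.09, −0.15, −0.39, −0.39 and 0.08 in males against females (mean −0.19 ± 0.20, SD, n = 5; limma adjusted p = 0.166). Scd2, a desaturase of stearate and palmitate, gave −0.25, 0.06, −0.38, −0.35 and 0.04 (mean −0.18 ± 0.21; limma adjusted p = 0.123). Acly, which releases acetyl-CoA from citrate, gave −0.28, −0.13, −0.25, −0.08 and 0.09 (mean −0.13 ± 0.15; limma adjusted p = 0.11). Replicate 5 was positive for all 3, and replicates 1, 3 and 4 were negative for all 3. Without replicate 5 Acly passed (−0.18, limma adjusted p = 0.0116), and without replicate 2 Scd2 passed (−0.24, limma adjusted p = 0.0384). In each case the pair left out was the gene's highest, so its removal had to lower the mean. Neither gene passed with any other pair left out. Scd1 and Fads1 had male-female means of 0.00 and 0.01. Fads2, a desaturase of polyunsaturated chains, gave 0.21, 0.13, −0.11, −0.04 and 0.29 in males against females (limma adjusted p = 0.36). Acaca, the acetyl-CoA carboxylase that makes malonyl-CoA, gave −0.09, −0.19, −0.19 and −0.16 at 6 h (mean −0.16, limma adjusted p = 0.0813) and −0.16, −0.10 and −0.15 at 12 h (limma adjusted p = 0.225). The probe used was below 0 in all 7 DHT pairs, but the 2 other kept probes gave 0.02 and −0.02 at 6 h and 0.06 and −0.03 at 12 h, so its probes disagreed. Acss2, which makes acetyl-CoA from acetate, had means of 0.04, −0.01 and 0.00.

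The signs of the ratios were also counted without regard to the threshold. At 6 h 23 of the 30 mean ratios were negative, at 12 h 25 and in males against females 19, against 45.6%, 48.8% and 49.7% of all genes. In 6 h replicate 1 alone 18 of the 30 were negative, in replicates 2 and 3 19 and 20, and in replicate 4 27. Among the 6180 brightest genes, to which 16 of the 30 belonged, these shares were 52.5%, 49% and 54.7%. At 6 h 13 of 30 genes were negative in every pair, against 11.8% of all genes, and 1 was positive in every pair, against 12.8%. At 12 h 11 of 28 genes measured in all pairs were negative in every pair, against 18.6% of all genes. In males against females 3 of 29 were (Dhcr7, Srebf1 and Elovl6), against 7.85%. An unadjusted p under 0.05 was found for 11 of the 30 genes at 6 h, of which 10 were lower, against 14.4% of all genes, and for 7 in males against females, of which 6 were lower, against 18.5%. The 30 genes share regulators and arrays and are not independent of each other. Each sign counted per pair is that of the mean of both dye orientations. The 2 arrays of a pair had the same sign for 16 to 20 of the 30 genes at 6 h. At 12 h they did for 19, 13 and 10, and in males against females for 16 to 18.

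Cholesterol genes were set against fatty acid genes within each pair of pools. At 6 h the median of the 17 cholesterol genes was −0.06, −0.07, −0.07 and −0.14 in replicates 1 to 4, and that of the 7 fatty acid genes was −0.03, −0.09, −0.04 and −0.10. Both medians were below 0 in all 4 pairs and differed within a pair by −0.02 ± 0.03 on average (SD, n = 4). On single arrays the medians depended on the dye orientation. Without dye swap the cholesterol medians were 0.06, −0.02, −0.04 and −0.07 and the fatty acid medians 0.00, −0.01, −0.07 and −0.20. On the swapped arrays the cholesterol medians were −0.05, −0.05, −0.13 and −0.21 and the fatty acid medians 0.05, 0.07, 0.06 and −0.04. At 12 h the cholesterol medians were −0.13, −0.02 and −0.05 and the fatty acid medians −0.06, −0.09 and −0.12. The cholesterol median was the lower in replicate 1 and the higher in replicates 2 and 3, a mean difference of 0.03 ± 0.08 (SD, n = 3). Without dye swap the 12 h cholesterol medians were −0.05, 0.05 and 0.01 and the fatty acid medians −0.07, −0.09 and −0.11. On the swapped 12 h arrays the cholesterol medians were −0.12, −0.06 and −0.06 and the fatty acid medians −0.01, −0.02 and −0.13. In males against females the cholesterol medians were −0.05, 0.17, −0.10, −0.06 and −0.02 and the fatty acid medians −0.19, 0.06, −0.25, −0.09 and 0.08. The cholesterol median was the higher in 4 of 5 pairs, and replicate 5 was the exception, a mean difference of 0.07 ± 0.11 (SD, n = 5). In each comparison the mean difference between the gene groups was smaller than its spread between pairs. With Acaca and Acss2 included, the fatty acid medians in males against females were −0.11, 0.06, −0.12, −0.09 and 0.08, and the mean difference was 0.02 ± 0.08 (SD, n = 5). The medians are small enough to depend on the normalization: with median centring in place of loess, the cholesterol median over the 12 h means was 0.012 in place of −0.035. The regulators and carrier had medians from −0.09 to 0.03 over the 12 pairs. At 12 h their medians were 0.06, 0.12 and 0.15 without dye swap and −0.18, −0.08 and −0.16 on the swapped arrays.

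**Figure D4:**
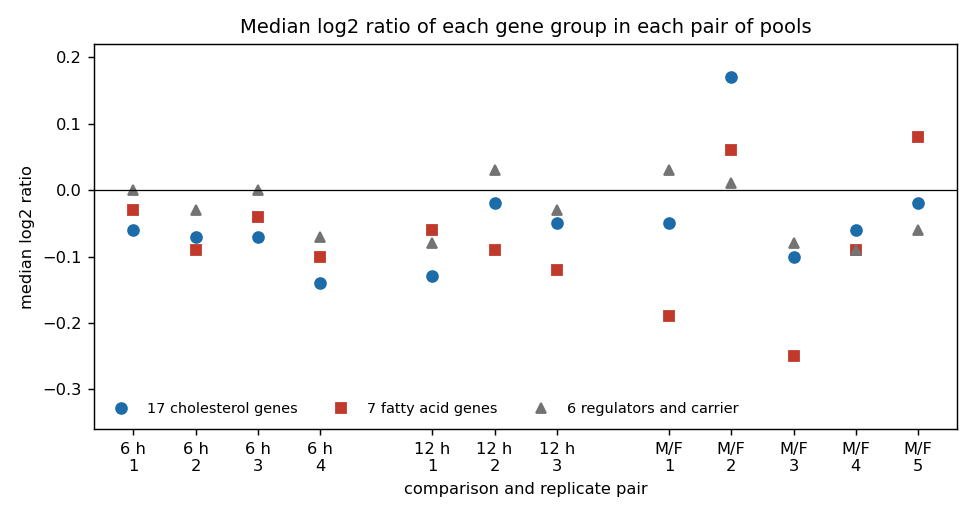
Median log2 ratio of 17 cholesterol genes, 7 fatty acid genes and 6 regulators and carriers (marker shapes) in each pair of pools at 6 h, at 12 h and in males against females (M/F). Cholesterol and fatty acid medians are below 0 in all 7 DHT pairs, and the male-female pairs spread from −0.25 to 0.17.

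Male-female replicate 2 and 6 h replicate 4 were singled out because their cholesterol medians, 0.17 and −0.14, stood apart. That most of the 17 genes shared the sign of that median follows in part from this choice. In male-female replicate 2 the highest log2 ratios included 0.27 for Idi1, 0.25 for Nsdhl, 0.25 for Stard4, 0.24 for Hsd17b7, 0.21 for Fdft1 and 0.20 for Sqle. Dhcr7 (−0.06) and Ebp (−0.02) were below 0. On its 2 arrays 15 and 13 of the 17 cholesterol genes were positive, so the shift was present in both dye orientations. Of all genes 49.3% were positive in this pair. In 6 h replicate 4 the lowest log2 ratios were −0.42 for Dhcr7, −0.37 for Hmgcs1, −0.32 for Stard4 and −0.31 for Hsd17b7. On its 2 arrays 11 and 17 of the 17 cholesterol genes were negative, while 50.6% of all genes were positive in that pair. Each gene's deviation from its mean within a comparison was correlated with that of the median of the cholesterol genes, leaving the gene itself out. Over 12 pairs the median r was 0.61 for the cholesterol genes, 0.32 for the regulators and 0.49 for the fatty acid genes, against 0.03 for 22926 other genes. Stard4 followed the cholesterol genes most closely (r = 0.88 over 11 pairs), then Mvd (0.81) and Hsd17b7 (0.80), while Ebp did not (0.00) and Fasn had 0.09. The Stard4 ratio depended on the dye orientation. It was positive on 8 of 12 arrays without dye swap (median 0.12) and on 0 of 11 swapped arrays (median −0.17). An r above 0.7 was reached by 6 of 17 cholesterol genes and by 0.81% of other genes. Without male-female replicates 2 and 3, the pairs with the largest deviations, 2 of 17 were above 0.7 (Dhcr7 and Nsdhl) and the median r was 0.46, so part of the correlation rested on those pairs. The median r of the regulators was then 0.46 as well, and that of the fatty acid genes 0.29. Stard4 kept an r of 0.89. The medians of the cholesterol and fatty acid genes correlated at r = 0.62 over the 12 pairs (Spearman's rho = 0.48) and at r = 0.19 without those 2 pairs. The points share arrays and dye orientation, and these correlations are a description without a test.

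**Figure D5:**
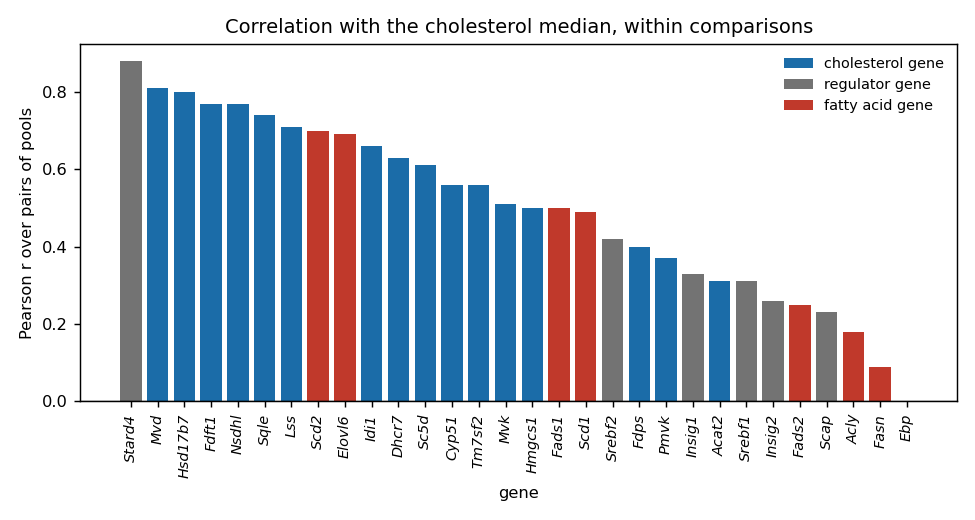
Pearson's r between each gene's deviation from its comparison mean and the deviation of the median of the other cholesterol genes, over up to 12 pairs of pools; bars start at 0 and colours mark cholesterol, regulator and fatty acid genes. Stard4 (0.88), Mvd (0.81) and Hsd17b7 (0.80) are the highest and Ebp (0.00) is the lowest.

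The promoters of the set were read from RefSeq for the 25 of 32 genes that had an entry (build GRCm38.p6). The 250 bases before the start are printed 5′ to 3′ for the genes that passed and for 3 sterol genes named above, with matches to TCACCCCA, TCACNCCAC and CCAAT (or its reverse, ATTGG) in capitals. TCACCCCAC is the core of the sterol regulatory element that SREBP binds, and CCAAT is the box bound by nuclear factor Y, its usual partner. Dhcr7, Insig2 and Srebf1 each had 3 listed starts, and the window printed was chosen after the matches were seen, as one with a CCAAT match.
Hmgcs1, chr13:119690101-119690350, plus strand: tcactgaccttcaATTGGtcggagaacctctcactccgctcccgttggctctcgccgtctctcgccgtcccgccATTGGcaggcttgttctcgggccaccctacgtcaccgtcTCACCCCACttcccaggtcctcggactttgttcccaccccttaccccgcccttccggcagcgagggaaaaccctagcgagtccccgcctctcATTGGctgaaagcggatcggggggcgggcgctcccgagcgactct
Hsd17b7, chr1:169969206-169969455, minus strand: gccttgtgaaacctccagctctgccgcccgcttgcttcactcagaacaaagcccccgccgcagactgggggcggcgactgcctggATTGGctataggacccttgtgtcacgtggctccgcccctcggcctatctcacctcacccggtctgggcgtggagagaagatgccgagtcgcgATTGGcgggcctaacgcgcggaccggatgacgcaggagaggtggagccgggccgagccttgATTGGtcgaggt
Dhcr7, chr7:143829964-143830213, plus strand: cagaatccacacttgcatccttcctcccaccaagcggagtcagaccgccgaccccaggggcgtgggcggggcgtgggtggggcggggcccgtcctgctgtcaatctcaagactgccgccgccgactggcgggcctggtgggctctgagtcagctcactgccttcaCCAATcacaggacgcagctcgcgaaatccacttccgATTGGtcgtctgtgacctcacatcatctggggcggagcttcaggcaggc
Insig2, chr1:121332590-121332839, minus strand: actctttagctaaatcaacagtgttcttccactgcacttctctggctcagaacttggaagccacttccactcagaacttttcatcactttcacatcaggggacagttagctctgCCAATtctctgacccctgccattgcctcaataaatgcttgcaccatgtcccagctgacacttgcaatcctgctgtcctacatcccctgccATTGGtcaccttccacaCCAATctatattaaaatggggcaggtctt
Srebf1, chr11:60210472-60210721, minus strand: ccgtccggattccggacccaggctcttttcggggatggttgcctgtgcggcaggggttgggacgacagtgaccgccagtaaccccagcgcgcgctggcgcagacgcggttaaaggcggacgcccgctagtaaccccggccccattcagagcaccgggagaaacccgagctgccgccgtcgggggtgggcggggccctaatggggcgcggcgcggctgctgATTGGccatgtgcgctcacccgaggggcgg
Elovl6, chr3:129532136-129532385, plus strand: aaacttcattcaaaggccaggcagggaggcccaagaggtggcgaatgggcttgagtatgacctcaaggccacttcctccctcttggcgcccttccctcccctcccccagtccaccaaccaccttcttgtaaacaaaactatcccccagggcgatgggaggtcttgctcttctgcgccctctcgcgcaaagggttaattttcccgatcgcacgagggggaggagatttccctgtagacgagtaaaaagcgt

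All motifs were searched on both strands. TCACCCCAC was found in the promoter of Hmgcs1, and in 0.555% of 27025 genes. The shorter TCACCCCA was found in Hmgcs1 and Srebf2, and in 1.54% of all genes. CACCCCAC, which overlaps both, was found in Hmgcs1 and Acat2 and in 2.98% of all genes, and TCACNCCAC in Hmgcs1 and in 1.22%. CCAAT was found in at least 1 promoter of 13 of 14 cholesterol genes (all but Acat2), of 4 of 5 regulators and of 2 of 6 fatty acid genes, against 37.5% of all genes. Elovl6 had no match to any of the motifs in the window shown.

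The neighbouring steps of the pathways were covered by lists of 25 other sterol genes and 25 other fatty acid genes, all measured. None of either list passed at 6 h or 12 h by limma, against 1.72% and 0.101% of all genes. At an unadjusted p under 0.05 there were 5 sterol and 7 fatty acid genes at 6 h, and 0 and 3 at 12 h. Of all genes 14.4% and 14.1% reached that level. In males against females 2 of 25 sterol genes passed, a share close to the 7.63% of all genes. Vldlr, a lipoprotein receptor, was higher in males at 0.39, 0.57, 0.53, 0.51 and 0.52 (mean 0.51, limma adjusted p = 0.000127), and Abcg1, a cholesterol exporter, was lower (−0.23, limma adjusted p = 0.00648). Of the fatty acid list 5 of 25 passed, against the same 7.63% of all genes. Hsd17b12, which reduces the keto group during chain elongation, was higher at 0.20 (limma adjusted p = 0.000816), as were Acsl4, an acyl-CoA synthetase (0.33, adjusted p = 0.00972), and Mid1ip1, an activator of acetyl-CoA carboxylase (0.44, adjusted p = 0.0134). Dgat2, which makes triglyceride, and Cpt1a, which brings fatty acids into mitochondria, were lower (−0.16 for both, limma adjusted p = 0.0289 and 0.0338). The median ratios of the lists in males against females were 0.02 and −0.01.

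Markers of other cell types moved in the same comparisons, and their part in the lipid gene ratios was not tested. All 27 epithelial markers were negative at 6 h (median −0.24, 0 passed) and 26 of 27 positive at 12 h (median 0.27, 0 passed). In males 12 were higher and 1 was lower (median 0.30), while 4 of 15 mesenchymal and 3 of 10 smooth muscle markers were lower. Of 12 immune markers 2 were higher at 6 h, and 5 were lower and 1 higher in males. Of all genes 1.72% passed at 6 h and 7.63% in males, in either direction. The mean epithelial marker ratio at 6 h was −0.51, −0.42, −0.10 and −0.01 in replicates 1 to 4, so the pair with the lowest cholesterol median, replicate 4, had the ratio closest to 0. In males against females it was 0.06, 0.35, 0.51, 0.39 and 0.21, and replicates 2 and 3, the highest and the lowest in cholesterol median, were both above 0. Other markers differed between those 2 pairs. The skeletal muscle median was −0.36 in replicate 2 (0 of 14 positive) and 1.67 in replicate 3 (13 of 14), the nerve marker median was 0.08 and −0.71, and the mesenchymal median was −0.01 and −0.54. None of 11 adipocyte markers and none of 11 markers of steroid-producing gonad and adrenal cells passed by limma in any of the 3 comparisons, with 1, 5 and 0 and 1, 3 and 1 at an unadjusted p under 0.05.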

How the data were processed

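Agilent Feature Extraction 7.5.1 made the deposited values from the authors' scans, per the file headers: each spot's mean intensity and local background intensity in Cy3 and Cy5, and the log10 of the background-subtracted and dye-normalised ratio, red over green. The deposited series matrix holds log2 ratios whose centring is not given in the sources used here; its columns had the sign of the scanner ratio on arrays without dye swap and the opposite sign on swapped arrays, and were read as turned by the authors. It served as an alternative.

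Intensities were corrected (normexp, offset 50) and loess-normalised within each array in limma 3.58.1 (R 4.3.3; data.table, version 1.17.8), with control spots at weight 0 and outlier spots removed. The offset shrinks the ratios of dim probes. Each of 24 arrays held 43790 spots, of which 41534 were not controls. Ratios were turned to DHT over vehicle or male over female, and both arrays of a pair were averaged, because they share their RNA, into 12 replicates. Of 41174 probes, 35477 had a channel well above background on at least 6 arrays, and the brightest stood for each of 24717 genes. Of the 30 genes, 19 had several kept probes, which all had the same sign for 9, 9 and 5 genes at 6 h, at 12 h and in males. A pair counted when both its arrays had a value; 1 pair was missing for Pmvk and Scd2 (12 h replicate 3) and for Stard4 (male-female replicate 1).

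The 12 replicates were fitted together, with 1 coefficient per comparison and differences as contrasts (two-sided, Benjamini-Hochberg over all genes, threshold 0.05). The labels name biological replicates of pooled embryos and do not say which embryos or litters; p-values measure the spread between these pools. The gene set and all lists were chosen with earlier results of these data known. Every gene of the set was named or counted; at most 5 passing genes were named from any other list. The lists not described in the results gave the following: of 14 skeletal muscle, 10 endothelial and 7 red blood cell markers none passed in the 3 comparisons (limma, unadjusted p under 0.05 for 0, 1 and 0 at 6 h, 0, 2 and 3 at 12 h, and 3, 1 and 0 in males), 1 of 15 nerve markers was higher in males, and 1 of 12 cell cycle genes was lower at 6 h. Settings tried in turn were the background correction, offset, normalization, the scanner's and the authors' ratios, probe filter and choice, the fit and each left-out pair. The number of arrays limits the precision.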

Additional observations from a re-analysis of the deposited data

Results flagged for a closer look

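Of 66 checks for a single replicate far from the others, 4 stood out, and chance gives about 1 in 20. The median of the 17 cholesterol genes was −0.14 in 6 h replicate 4, below the other 3 pairs, and 0.17 in male-female replicate 2, above the other 4. Pmvk, the phosphomevalonate kinase, was −0.12 in male-female replicate 3, and Ebp, a sterol isomerase, was −0.19 in male-female replicate 5, each below the other 4 pairs. Elovl6 differed between comparisons by the limma contrast, by −0.28 between males against females and 6 h of DHT (adjusted p = 0.0161).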

How the results depend on the processing

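No result changed its sign past the threshold. Over all settings, 1398 values of single genes of the set were recomputed. Of these, 1330 either kept their call, whatever the size of the shift, or stayed uncalled and moved by less than 1 SD between replicates. A further 39 stayed uncalled and moved by 1 SD or more, 10 passed only under the alternative, and 19 lost the call. Among all of these, 131 values that had not passed had the opposite sign, so the signs of ratios near 0 are not settled. Elovl6 in males kept its call in 15 of 16 settings (−0.26 to −0.18) and lost it when that comparison was fitted alone (adjusted p = 0.0614). Srebf1 in males kept it in 11 of 16 (−0.21 to −0.12), the difference of Elovl6 between males and 6 h in 17 of 21 (−0.39 to −0.25), and Insig2 at 6 h in 7 of 16 (0.08 to 0.34). The cause was not tested.

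The counts below are of genes passing the limma test, with 424, 25 and 1887 at 6 h, at 12 h and in males, and 23, 1756 and 401 for the differences of 12 h from 6 h, of males from 6 h and of males from 12 h. Without background correction 0 genes passed at 12 h (3051 at an unadjusted p under 0.05) and 10 in the difference of 12 h from 6 h. With an offset of 16 it was 181 at 6 h, 116 at 12 h and 8 in that difference, and 0 genes of the set passed at 6 h (10 unadjusted) and 1 in males. With median centring it was 142 at 6 h, 116 for 12 h from 6 h and 853 for males from 6 h, with 0 genes of the set at 6 h (11 unadjusted) and 0 in the difference of males from 6 h (3 unadjusted); the cholesterol, fatty acid and regulator medians were then −0.122, −0.093 and −0.056 at 6 h, 0.012, −0.060 and 0.037 at 12 h, and −0.068, −0.183 and −0.074 in males, so the 12 h cholesterol and regulator medians turned positive. The split was 6 higher and 136 lower at 6 h, against 126 and 298. With the scanner's log ratio it was 24 at 6 h (1 higher, 23 lower), 46 at 12 h, 0 for 12 h from 6 h (2849 unadjusted) and 1131 for males from 6 h, with 0 genes of the set at 6 h (9 unadjusted) and 1 in males. The authors' series matrix gave 701 at 6 h and 0 at 12 h (2636 unadjusted).

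With no filter on dim probes 79 passed at 12 h, and with probes well above background on all 24 arrays the regulator median at 6 h was −0.004, over fewer genes. With the mean over the probes of a gene 279 passed at 6 h and 93 at 12 h, and 2 genes of the set in the difference of males from 6 h (Elovl6 and Hsd17b7). Fitted alone, the comparisons gave 8 at 6 h, 0 at 12 h (3004 unadjusted) and 867 in males, with 0 genes of the set at 6 h (14 unadjusted) and 1 in males. With all 24 arrays and the pair as a random block it was 1275 at 6 h, 189 at 12 h, 548, 2729 and 784 in the differences, with 4 genes of the set at 6 h and 5 in males (Acly, Elovl6, Fasn, Scd2 and Srebf1).

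Replicate numbers did not pair the samples: deviations of same-numbered pairs from their group means correlated at −0.0702 to 0.286. A replicate block gave 153 genes for 12 h from 6 h and 167 for males from 12 h, and changed no call in the set.

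After seeing the data, 6 h replicate 1 alone was fitted, assumed to vary like the other groups. It gave 1 gene at 6 h, 5 for 12 h from 6 h and 81 for males from 6 h, 0 genes of the set at 6 h (4 unadjusted) and 0 in the difference of males from 6 h (4 unadjusted), and medians of −0.026 for fatty acid genes and 0.004 for regulators at 6 h. Also added then, accepting 1 array of a pair gave 71 genes at 12 h.

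Leaving out 1 pair at a time gave 18 to 259 genes at 6 h, 0 at 12 h, 1138 to 1809 in males, and 0 to 15, 879 to 1814 and 132 to 419 in the differences. Of the set 0 to 1 passed at 6 h, 1 to 3 in males and 0 to 1 in the difference of males from 6 h. Signal limits Insig1 most, the dimmest gene of the set, which was well above background on 23 of 24 arrays.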
